A study of Mus musculus with 8 samples.

Results

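The 10 genes described here encode 4 ubiquitin ligases of striated muscle (Fbxo32, Trim63, Trim54 and Trim55) and 6 proteins of autophagy (Map1lc3b, Sqstm1, Gabarapl1, Bnip3, Becn1 and Ulk1). They were taken by gene name from the 55679 genes of the deposited RNA-seq table, with earlier results of these data known. The libraries came from the left ventricle of male wild-type C57BL/6J mice, with 4 libraries from infusion of saline (control) and 4 from infusion of angiotensin II (ANG II, a peptide hormone that constricts blood vessels). The infusion ran for 7 days from an osmotic pump under the skin, and the ANG II dose was 1500 ng/kg/min. Neither group carried a transgene or a deletion, and the age of the mice was not given in the sources used here. The comparison asks how the RNA of these genes differs in a ventricle exposed to a pressor dose of ANG II, a model of hypertensive left ventricular hypertrophy.

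A muscle cell removes its proteins by 2 main routes. In the ubiquitin-proteasome route, a ligase attaches ubiquitin to a chosen protein and the proteasome then degrades it. Fbxo32 (atrogin-1) and Trim63 (MuRF1) are the ligases best known from muscle wasting, and FoxO transcription factors induce both. Trim55 (MuRF2) and Trim54 (MuRF3) are relatives of Trim63 that also bind the sarcomere and microtubules. In autophagy, a membrane grows around cytoplasm, closes, and fuses with a lysosome. Ulk1 starts the process, Becn1 belongs to the lipid kinase complex that acts next, Map1lc3b and Gabarapl1 are coupled to the growing membrane, and Sqstm1 (p62) and Bnip3 are receptors that link cargo to it. The heart relies on both routes for turnover of myofibrils and mitochondria. RNA levels measure neither ligase activity nor autophagic flux.

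The 2 promoters shown are those of the member with the largest fall and the member with the largest rise in the present libraries. They are the 250 bases before the RefSeq transcription start (GRCm38.p6), written 5′ to 3′ on the strand of the gene. Capitals mark the match of Trim63 to the FoxO core TGTTTAC and the match of Bnip3 to the E-box CACGTG.
Trim63, chr4:134314870-134315119, plus strand: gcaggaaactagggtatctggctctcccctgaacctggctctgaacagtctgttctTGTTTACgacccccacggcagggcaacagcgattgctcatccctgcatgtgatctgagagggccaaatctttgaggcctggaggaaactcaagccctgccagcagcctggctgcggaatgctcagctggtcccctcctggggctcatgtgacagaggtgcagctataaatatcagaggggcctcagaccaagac
Bnip3, chr7:138909507-138909756, minus strand: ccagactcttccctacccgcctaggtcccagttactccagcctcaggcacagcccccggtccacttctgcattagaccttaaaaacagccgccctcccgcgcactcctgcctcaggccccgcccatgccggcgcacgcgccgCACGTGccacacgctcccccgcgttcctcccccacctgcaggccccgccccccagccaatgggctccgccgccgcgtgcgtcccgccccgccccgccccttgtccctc
The Trim63 match lies at positions -194 to -188 and the Bnip3 match at -108 to -103, counted so that -1 is the last base before the start. The Bnip3 match also holds the overlapping hypoxia response core ACGTG on both strands. The 7 members found in the RefSeq table were Trim63, Trim54, Map1lc3b, Sqstm1, Gabarapl1, Bnip3 and Ulk1, and Fbxo32, Trim55 and Becn1 were not. Both strands were searched. Of 32851 promoter windows of the same length, 3.17% held the FoxO core, 6.02% the E-box and 16.6% the hypoxia response core. The CLEAR box of lysosomal genes, which contains the E-box, was in 0.24% of windows, and the antioxidant response core TGACNNNGC in 10.2%. No other match was found in the 7 windows. A match is a run of letters and not evidence that a factor binds there.

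The deposited values were FPKM, the fragments of a gene scaled to transcript length and to the mapped fragments of the library. The steps between low values gave 14461800 to 16569800 fragments in the control libraries and 15131800 to 15964095 in the ANG II libraries. Each member rested on at least 332 fragments in every library. Of 19364 genes tested, 2981 were called, which means an adjusted p under 0.05 (limma, Benjamini-Hochberg over all genes tested) and an absolute log2 fold change above 0.5. Of these, 90.8% were higher in ANG II, against 67.5% when the libraries were scaled by the median of ratios, which assumes that most genes do not differ. The median log2 fold change over all genes was 0.15 as deposited, and less that median the members stood at 0.83 (Bnip3), 0.37 (Sqstm1), 0.28 (Becn1), 0.13 (Gabarapl1), 0.04 (Trim54), -0.08 (Map1lc3b), -0.15 (Ulk1), -0.25 (Trim55), -0.35 (Fbxo32) and -0.57 (Trim63). Transcripts of the mitochondrial genome held 26.3% to 27.0% of the recovered fragments in control libraries and 19.2% to 21.8% in ANG II libraries. The part of that shift in the results was not tested.

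As deposited, Bnip3 rose the most, Sqstm1, Becn1 and Gabarapl1 rose by smaller amounts, and Trim63 fell. Only Bnip3 and Sqstm1 of these passed the adjusted p in each of the 5 other scalings tried. Fbxo32, Trim54, Trim55, Map1lc3b and Ulk1 did not pass the test. Of the 10 members, 2 were called higher (Bnip3 and Sqstm1) and 0 lower. Of all genes 15.4% were called, 14.0% higher and 1.41% lower. By adjusted p alone, 4 members were higher and 1 was lower, against 28.4% and 4.91% of all genes (33.3% in all). The same 4 and 1 did not overlap between the groups, against 28.7% and 5.06% of all genes (33.7% in all). The median log2 fold change was 0.12 over the 10 members, -0.15 over the 4 ligases and 0.35 over the 6 autophagy genes, beside 0.15 over all genes. The share of members called was thus near that of all genes, and the results below concern single genes. With another scaling the members called were partly other genes. There were 1 higher and 1 lower, Bnip3 and Trim63, with the median of ratios (12.8% of all genes), with a common total that left out mitochondrial and the 10 highest genes (13.0%) and with voom on the recovered fragments (21.1%). Quantile normalization called 1 higher and 2 lower, Fbxo32 being added (12.4%). Scaling to cardiomyocyte markers called 5 higher and 0 lower (33.5%), namely Bnip3, Sqstm1, Becn1, Gabarapl1 and Trim54. By adjusted p alone, 2 members were higher and 4 lower under the median of ratios, against 14.6% and 13.1% of all genes. Scaled to cardiomyocyte markers, 8 were higher and 0 lower, against 55.6% and 1.23%. The members numbered 3 and 2 with the common total (3454 and 1748 of 19364 genes) and 2 and 3 after quantile normalization (2445 and 2957). By voom they numbered 2 and 5 (2939 and 2694 of 14405 genes). The median of the 4 ligases was -0.36 under the median of ratios and 0.14 when scaled to cardiomyocyte markers, and that of the 6 autophagy genes was 0.13 and 0.67.

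**Figure D1:**
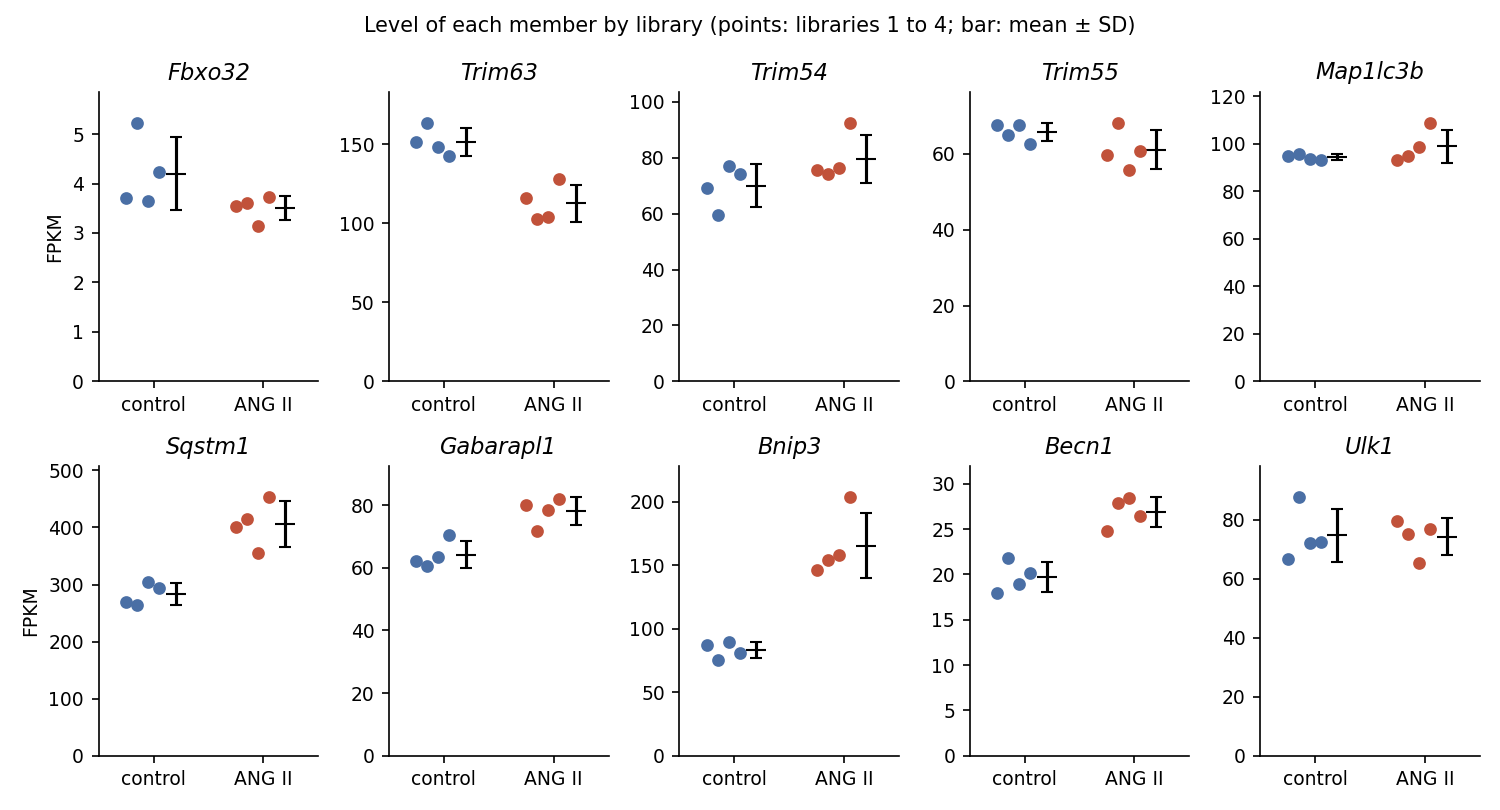
FPKM (vertical axis, from 0) of each of the 10 members in the 4 control and the 4 ANG II libraries, with points for libraries 1 to 4 from left to right and a bar for the mean ± SD. The groups did not overlap for Trim63, lower in ANG II, and for Sqstm1, Gabarapl1, Bnip3 and Becn1, higher in ANG II.

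Trim63, a RING-finger ligase that ubiquitinates sarcomere proteins such as myosin heavy chain, was the only ligase member past the adjusted p as deposited. Its level was 151, 163, 148 and 142 FPKM in control libraries 1 to 4 and 116, 103, 104 and 128 FPKM in ANG II libraries 1 to 4. The highest ANG II library lay below the lowest control. The means were 151 ± 8.82 FPKM and 113 ± 11.7 FPKM (SD, n = 4 each), and the log2 fold change was -0.43 (SE 0.0756, 95% interval -0.59 to -0.26, limma adjusted p = 0.00205). Of all genes tested, 2.85% had a lower log2 fold change. As deposited, Trim63 missed the fold threshold of 0.5. It passed it under the median of ratios (log2 fold change -0.65, limma adjusted p = 1.2e-04). When the libraries were scaled to 8 cardiomyocyte markers the log2 fold change was -0.10 (limma adjusted p = 0.352).

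Fbxo32 encodes an F-box protein, the subunit that selects substrates for a cullin ligase. It had 3.71, 5.22, 3.64 and 4.23 FPKM in the control libraries and 3.54, 3.61, 3.15 and 3.72 FPKM in the ANG II libraries. Control library 2 stood above the other 7, and the groups overlapped. The means were 4.20 ± 0.730 and 3.51 ± 0.250 FPKM (SD, n = 4 each). The log2 fold change was -0.20 (SE 0.114, 95% interval -0.45 to 0.06, limma adjusted p = 0.214). The interval reaches past the value of Trim63, and without control library 2 the log2 fold change was -0.11. Fbxo32 passed the adjusted p under the median of ratios (-0.38, limma adjusted p = 0.0307) and was 0.06 when scaled to cardiomyocyte markers (limma adjusted p = 0.699).

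Trim54 and Trim55, which can pair with each other and with Trim63, did not pass the test as deposited. Trim54 had 69.2, 59.7, 77.1 and 74.2 FPKM in control and 75.5, 74.3, 76.4 and 92.4 FPKM in ANG II. ANG II library 4 stood apart from the other 3, which lay within the range of the controls. Trim55 had 67.5, 65.0, 67.5 and 62.6 FPKM in control and 59.5, 68.1, 55.8 and 60.7 FPKM in ANG II. ANG II library 2 was above all controls and the other 3 were below them. The log2 fold change of Trim54 was 0.18 (95% interval -0.02 to 0.39, limma adjusted p = 0.161), and 0.11 without control library 2 or without ANG II library 4. It was -0.04 under the median of ratios and 0.50 when scaled to cardiomyocyte markers (limma adjusted p = 0.00164). For Trim55 the log2 fold change was -0.11 (95% interval -0.25 to 0.04, limma adjusted p = 0.234). It was -0.16 without ANG II library 2 and -0.06 without ANG II library 3. Trim55 passed the adjusted p under the median of ratios (-0.33, limma adjusted p = 0.00473) and turned to 0.21 when scaled to cardiomyocyte markers (limma adjusted p = 0.00925).

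Bnip3, a protein of the outer mitochondrial membrane that binds the Atg8 family and takes part in mitophagy and cell death, showed the largest change of the 10. It had 87.2, 75.5, 89.3 and 81.1 FPKM in control and 146, 154, 158 and 204 FPKM in ANG II. The lowest ANG II library was well above the highest control, and ANG II library 4 was the highest of all. The mean went from 83.3 ± 6.24 to 166 ± 25.9 FPKM (SD, n = 4 each), a ratio of 1.99 and a log2 fold change of 0.97 (SE 0.10, 95% interval 0.75 to 1.20, limma adjusted p = 1.02e-04). Bnip3 was called higher in each of 18 alternative settings that keep the threshold of 0.5, with log2 fold changes from 0.75 to 1.29, and without ANG II library 4 the value was 0.87. Its promoter is the window above with the E-box match. Without information on strand, reads of Bnip3 cannot be told from those of Gm45507, which lies opposite 22.3% of its exon bases and is listed at 0 in all libraries. Of its 50-base words 16.5% are shared with any other gene, and Gm16439, which shares the most of them, is also listed at 0.

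Sqstm1, a receptor that binds ubiquitinated cargo and is itself degraded by autophagy, had the highest FPKM of the members. It had 269, 264, 304 and 294 FPKM in control and 401, 416, 355 and 453 FPKM in ANG II. All ANG II libraries were above all controls. The mean went from 283 ± 19.1 to 406 ± 40.6 FPKM (SD, n = 4 each). The log2 fold change was 0.52 (SE 0.0787, 95% interval 0.34 to 0.69, limma adjusted p = 8.5e-04). That value lies just above the threshold of 0.5, and the call was lost in 7 of these 18 alternatives. In those 7 the direction and the adjusted p held and the log2 fold change was between 0.29 and 0.50, among them the median of ratios (0.29), and leaving out control library 1 (0.50), control library 2 (0.49) or ANG II library 4 (0.46).

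Becn1, the regulatory subunit of the class III lipid kinase complex, had 18.0, 21.8, 19.0 and 20.2 FPKM in control and 24.8, 27.9, 28.4 and 26.5 FPKM in ANG II. The groups did not overlap. The means were 19.7 ± 1.64 and 26.9 ± 1.63 FPKM (SD, n = 4 each). The log2 fold change was 0.43 (SE 0.0719, 95% interval 0.27 to 0.59, limma adjusted p = 0.00148). It was 0.21 under the median of ratios, which did not pass (limma adjusted p = 0.0781), and 0.74 when scaled to cardiomyocyte markers (limma adjusted p = 2.74e-05). Cntd1 lies opposite 43.9% of the Becn1 exon bases and had at most 0.376 FPKM in any library.

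Gabarapl1 and Map1lc3b are Atg8 proteins, which are attached to lipid on the growing membrane and bind the receptors. Gabarapl1 had 62.1, 60.7, 63.4 and 70.3 FPKM in control and 80.0, 71.6, 78.4 and 82.0 FPKM in ANG II. All ANG II libraries were above all controls, by a small margin for ANG II library 2. The log2 fold change was 0.28 (SE 0.0620, 95% interval 0.14 to 0.42, limma adjusted p = 0.00668), 0.05 under the median of ratios (limma adjusted p = 0.604) and 0.60 when scaled to cardiomyocyte markers (limma adjusted p = 1.54e-04). Map1lc3b had 94.9, 95.7, 93.5 and 93.2 FPKM in control, the tightest spread of the members, and 93.1, 95.0, 98.8 and 109 FPKM in ANG II. The first 2 ANG II libraries lay at the level of the controls, and ANG II library 4 was the highest. Its log2 fold change was 0.07 (95% interval -0.06 to 0.19, limma adjusted p = 0.392), and its direction turned under the median of ratios (-0.16, limma adjusted p = 0.0456), while it was 0.39 when scaled to cardiomyocyte markers (limma adjusted p = 6.04e-04).

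Ulk1, the kinase that receives the mTOR and AMPK signals, had 66.6, 87.6, 72.0 and 72.4 FPKM in control and 79.5, 75.0, 65.2 and 76.9 FPKM in ANG II. Control library 2 was the highest and ANG II library 3 the lowest, and the groups overlapped throughout. The log2 fold change was -0.0062 (95% interval -0.21 to 0.19, limma adjusted p = 0.968). The sign changed when control library 2 or ANG II library 3 was left out and when scaled to cardiomyocyte markers (0.31, limma adjusted p = 0.0169). By voom Ulk1 passed as lower (-0.24, limma adjusted p = 0.0485). ANG II library 4 had the highest value of its group for 7 of the 10 members, and for Becn1, Trim55 and Ulk1 another library did.

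**Figure D2:**
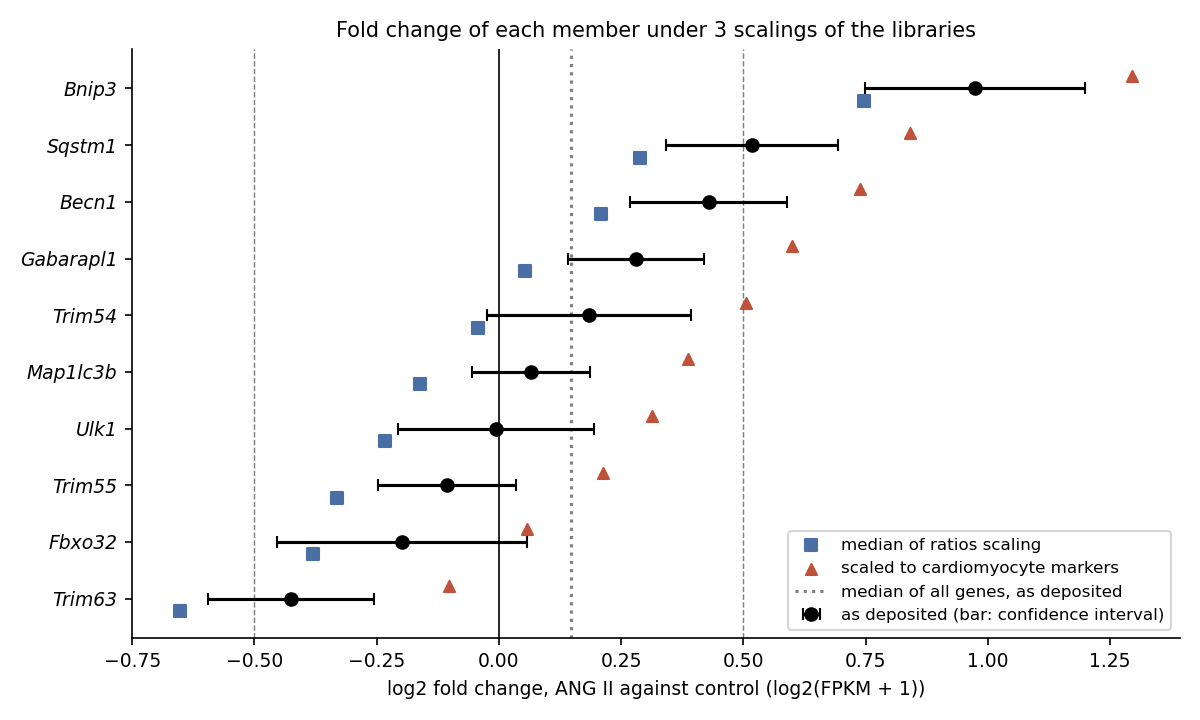
Log2 fold change of ANG II against control (horizontal axis, on log2(FPKM + 1)) for each member: black points with 95% intervals as deposited, blue squares after median of ratios scaling and red triangles after scaling to cardiomyocyte markers. The dotted line is the median of all genes as deposited (0.15) and the dashed lines are the threshold of 0.5. Both scalings divide all genes of a library by the same factor, so the members move by similar amounts and keep their order. Fbxo32, Trim55 and Ulk1 lie below 0 as deposited and above 0 after scaling to cardiomyocyte markers. Trim54 and Map1lc3b lie above 0 as deposited and below 0 under the median of ratios.

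Levels between genes were compared per length. The deposited FPKM divided by the mean length of the annotated transcripts of a gene, which for Ulk1 was 1297 bases and for its longest transcript 5213 bases. Per kilobase of the longest transcript, the control levels were in the order Sqstm1 129, Trim63 127, Trim54 69.4, Map1lc3b 49.4, Trim55 39.2, Bnip3 34.2, Gabarapl1 33.4, Ulk1 18.6, Becn1 5.91 and Fbxo32 4.20 FPKM. Among neighbours in this order, the control libraries overlapped between Sqstm1 and Trim63 and between Bnip3 and Gabarapl1, and not between the others. On that scale Trim63 was 30.2 times the level of Fbxo32 in control, and on the deposited scale 36.0 times. In ANG II, Sqstm1 was at 186 and Trim63 at 94.4 FPKM per longest transcript.

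Ratios between members in a library do not depend on a scaling that applies 1 factor to each library, though quantile normalization changes them. They were taken for 10 pairs as log2 of the 2 FPKM values. The smallest exact two-sided permutation p for 4 against 4 libraries is 0.0286, and it becomes 0.0571 after adjustment over the 10 pairs, so no pair passed the adjusted threshold. In 5 pairs the groups did not overlap and the p was the smallest possible. Trim63 was 1.92 to 2.74 times Trim54 in control and 1.36 to 1.53 times in ANG II, a difference of -0.62 on the log2 scale. Against Trim55, Trim63 was 2.20 to 2.51 times in control and 1.51 to 2.11 times in ANG II (difference of the log2 ratios -0.32). Trim63 was thus lower relative to both of its relatives in all 4 ANG II libraries. Bnip3 was 0.789 to 0.955 times Map1lc3b in control and 1.57 to 1.87 times in ANG II (log2 difference 0.92). Sqstm1 was 2.76 to 3.25 times Map1lc3b in control and 3.59 to 4.38 times in ANG II (log2 difference 0.45). Both receptors were therefore higher relative to Map1lc3b in all ANG II libraries. Ulk1 was 3.58 to 4.02 times Becn1 in control and 2.30 to 3.21 times in ANG II (log2 difference -0.45). In the other 5 pairs the groups overlapped. The log2 difference was 0.18 for Fbxo32 to Trim63 (exact p = 0.229), -0.44 for Fbxo32 to Trim54 (exact p = 0.0571), -0.14 for Fbxo32 to Trim55 (exact p = 0.4), 0.29 for Trim54 to Trim55 (exact p = 0.0857) and -0.22 for Map1lc3b to Gabarapl1 (exact p = 0.0857).

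**Figure D3:**
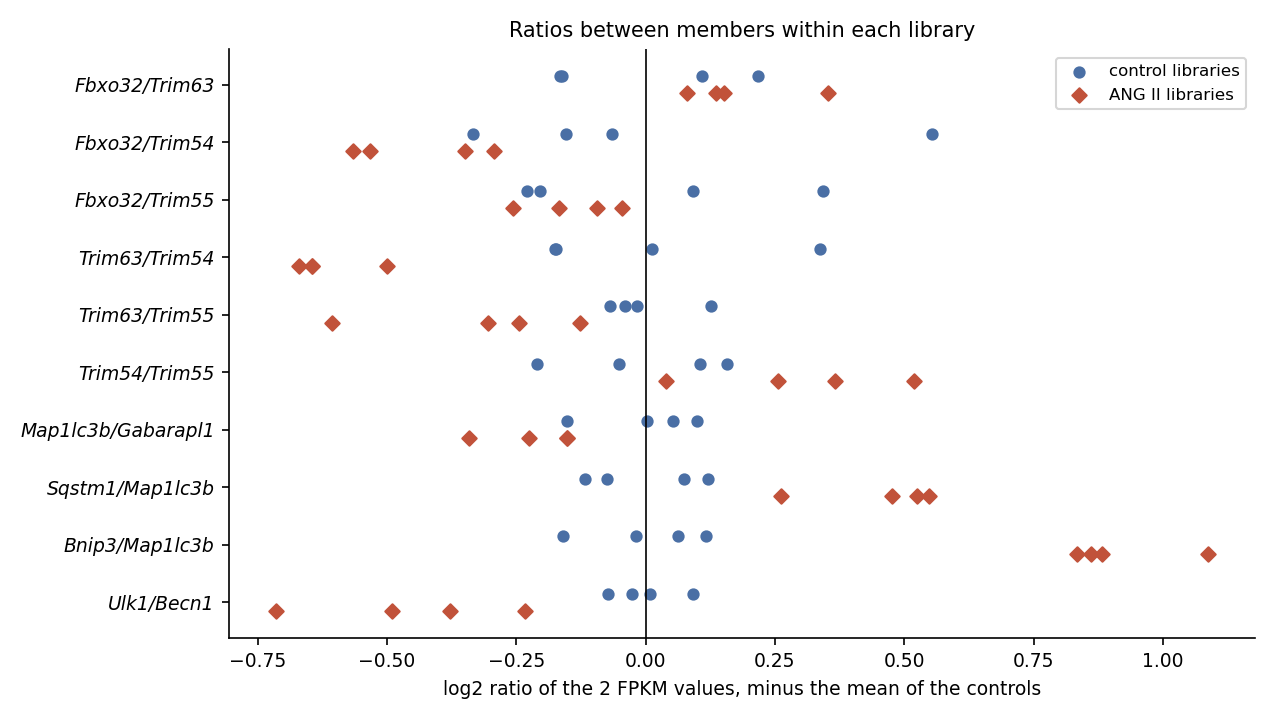
Log2 ratio of the FPKM of 2 members in each library, minus the mean of the 4 controls (horizontal axis), with blue circles for control and red diamonds for ANG II libraries. The ANG II libraries lie apart from the controls for Trim63/Trim54, Trim63/Trim55, Sqstm1/Map1lc3b, Bnip3/Map1lc3b and Ulk1/Becn1.

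The closest relatives of the autophagy members were read in the same way. Bnip3l, the mitophagy receptor most like Bnip3, had 51.2, 56.2, 48.2 and 50.1 FPKM in control and 72.3, 68.3, 72.9 and 71.8 FPKM in ANG II (log2 fold change 0.47, limma adjusted p = 2.2e-04). All ANG II libraries exceeded all controls. Gabarap rose from 151 ± 4.82 to 201 ± 8.51 FPKM (SD, n = 4 each, log2 fold change 0.41, limma adjusted p = 1.75e-04). As deposited, Gabarapl2 rose from 42.2 ± 1.30 to 47.9 ± 2.05 FPKM (SD, n = 4 each, log2 fold change 0.18, limma adjusted p = 0.0186), but its log2 fold change was -0.04 under the median of ratios. Bnip3l (0.24) and Gabarap (0.19) kept their direction and their adjusted p under the median of ratios. Map1lc3a, like Map1lc3b, did not pass, with a log2 fold change of 0.12 (limma adjusted p = 0.368). Ulk2, the paralog of Ulk1, had 0.13 (limma adjusted p = 0.135), and both turned negative under the median of ratios (-0.11 and -0.09). Scaled to cardiomyocyte markers, Map1lc3a (0.44, limma adjusted p = 0.0019) and Ulk2 (0.45, limma adjusted p = 4.3e-04) passed as higher.

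The rest of the pathway was taken from 10 lists with 87 other genes. By adjusted p, 24 of the 87 were higher and 5 lower, and 4 were called higher and 1 lower. Over all genes, 28.4% were higher and 4.91% lower by adjusted p, and 14.0% were called higher and 1.41% lower, so neither count of higher genes exceeded the background. The median log2 fold change was 0.08 against 0.15 over all genes. This split depended on the scaling, since by adjusted p 9 were higher and 26 lower under the median of ratios, and 67 were higher and 0 lower when scaled to cardiomyocyte markers. The shares of all genes were 14.6% higher and 13.1% lower under the median of ratios, and 55.6% higher and 1.23% lower when scaled to cardiomyocyte markers. The counts that follow are as deposited. In the initiation kinase complex, 2 of 4 other genes passed, both higher, and Atg101, a subunit that stabilises Atg13, was called (14.9 ± 1.53 to 22.1 ± 2.38 FPKM, SD, n = 4 each, log2 fold change 0.54, limma adjusted p = 0.0019). Atg101 stayed called when scaled to cardiomyocyte markers, but not under the other 4 scalings (0.30 to 0.40). In this complex, 2 of the 4 were higher and 1 lower by adjusted p under each of those 4 scalings. Scaled to cardiomyocyte markers, 4 were higher. In the class III lipid kinase complex, 4 of 7 were higher by adjusted p. Nrbf2, a subunit of the Becn1 complex, was called, from 2.42 ± 0.378 to 4.28 ± 0.721 FPKM (SD, n = 4 each, log2 fold change 0.62, limma adjusted p = 0.00511). The call was lost under the median of ratios (0.45), where 1 of the 7 was higher by adjusted p, and under quantile normalization Nrbf2 (0.30, limma adjusted p = 0.137) and the other 6 did not pass. Of the 7 lipid transfer and membrane binding genes, 0 passed the adjusted p in limma, and 3 were higher at an unadjusted p under 0.05. By adjusted p, 2 of these 7 were lower under the median of ratios and by voom, and 6 were higher when scaled to cardiomyocyte markers. Of the 10 conjugation enzymes, 3 were higher by adjusted p and 0 were called, against 2 lower under the median of ratios and 8 higher when scaled to cardiomyocyte markers. Of the 10 other receptors, 2 were higher and 1 lower by adjusted p, against 1 higher and 6 lower under the median of ratios and 6 higher when scaled to cardiomyocyte markers.

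Lysosomal genes had the largest median of the lists, 0.39, and 6 of 8 were higher by adjusted p. Lamp2, a lysosomal membrane protein needed for fusion and for chaperone-mediated autophagy, went from 80.2 ± 4.94 to 114 ± 5.07 FPKM (SD, n = 4 each, log2 fold change 0.51, limma adjusted p = 1.53e-04). Tfe3, a transcription factor of lysosomal and autophagy genes, had 6.47, 5.37, 5.42 and 5.73 FPKM in control and 9.04, 7.72, 10.8 and 8.63 FPKM in ANG II (log2 fold change 0.57, limma adjusted p = 0.00253). Both were called higher, and both kept an adjusted p under 0.05 under the median of ratios (0.28 and 0.37) without passing 0.5. Under quantile normalization Tfe3 missed the adjusted p (0.27, limma adjusted p = 0.0808). The list had 4 of 8 higher and 1 lower by adjusted p under the median of ratios, and 7 of 8 higher when scaled to cardiomyocyte markers.

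Among 20 other muscle ligases and cofactors, 2 were higher and 3 lower by adjusted p, with 0 called, and the median was 0.04. By adjusted p, 7 of these 20 were lower under the median of ratios and 14 were higher when scaled to cardiomyocyte markers. The 5 pathway genes that were lower by adjusted p were Klf15, Asb2, Fbxl22, Pink1 and Ube2b, and all but Klf15 are named because of their values. Klf15, a cardiac transcription factor that represses growth and can act with FoxO on Trim63 and Fbxo32, had 21.3, 25.8, 23.2 and 24.5 FPKM in control and 18.5, 13.0, 14.0 and 17.8 FPKM in ANG II (log2 fold change -0.57, limma adjusted p = 0.00389). Asb2, a muscle ligase subunit that targets filamin, had -0.49 and Fbxl22, an F-box protein of the sarcomere Z-disc, had -0.42. Under the median of ratios both passed 0.5 (-0.72 and -0.63). Pink1, a kinase that marks damaged mitochondria for mitophagy, had -0.36, and its groups overlapped, but under the median of ratios it also passed 0.5 (-0.59, limma adjusted p = 0.00177). Ube2b, a ubiquitin-conjugating enzyme, had -0.20, which turned to 0.13 when scaled to cardiomyocyte markers, where 0 of the 5 passed the adjusted p in limma. In the list of Klf15 and the 4 FoxO factors, as deposited, Klf15 alone passed the adjusted p in limma and 2 of 5 were lower at an unadjusted p under 0.05. By adjusted p, 2 of these 5 were lower under the median of ratios and under quantile normalization, 3 were lower by voom, and 3 were higher when scaled to cardiomyocyte markers. Of the 13 mTOR and AMPK genes, 3 were higher by adjusted p and 0 were called, against 5 lower under the median of ratios and 9 higher when scaled to cardiomyocyte markers.

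**Figure D4:**
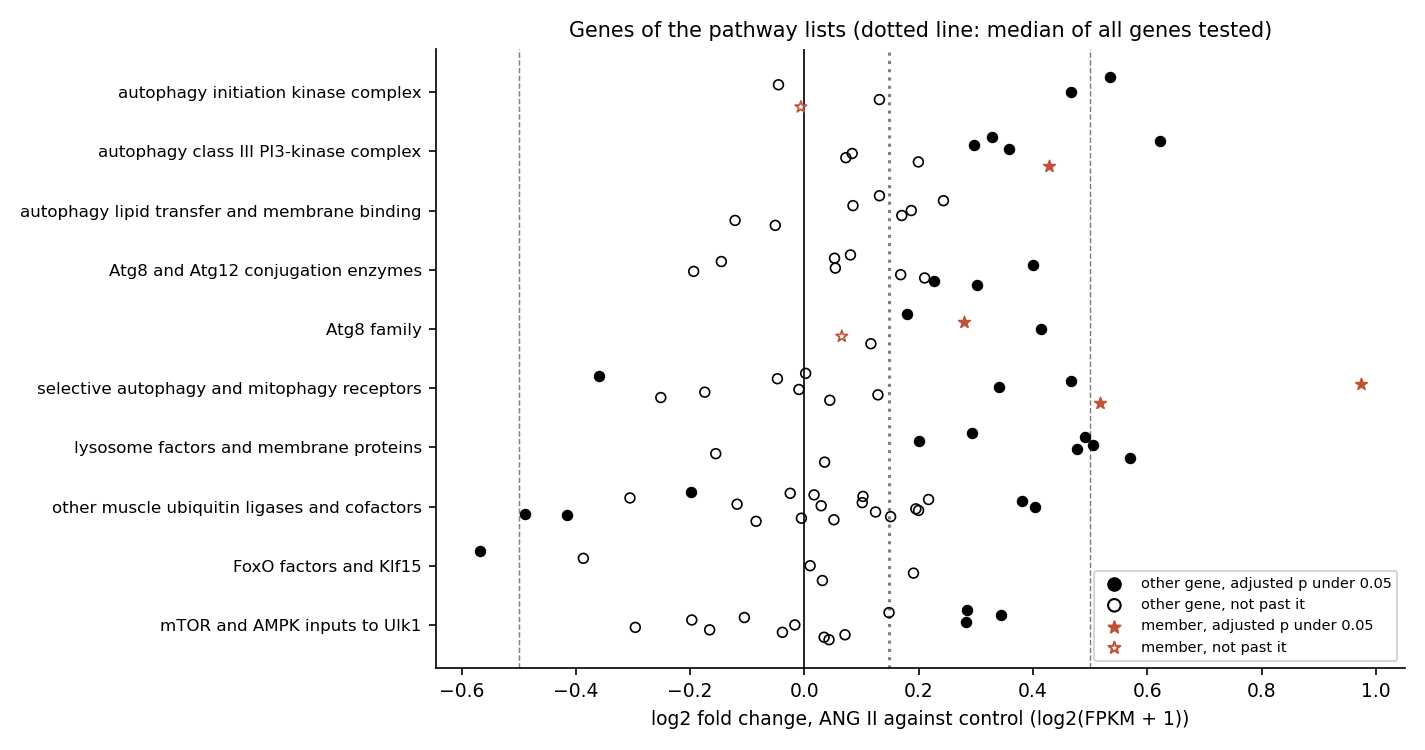
Log2 fold change of ANG II against control (horizontal axis, on log2(FPKM + 1)) for the genes of the 10 pathway lists, with stars for the members, circles for other genes, and filled marks for an adjusted p under 0.05. Bnip3 lies farthest to the right (0.97), Klf15 farthest to the left (-0.57), and the dotted line is the median of all genes. Of the 87 circles, 24 are filled to the right of 0 and 5 to the left as deposited, which became 9 and 26 under the median of ratios.

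By the root mean square distance of centred log2(FPKM + 1) over 8 libraries, among 12830 genes averaging 1 FPKM or more, the genes nearest to Bnip3 included Prkcd (distance 0.0675) and Sla (0.0988), and those nearest to Sqstm1 were E2f3 (0.0394), Ccdc6 (0.0458) and Xpr1 (0.0510). Prkcd went from 12.1 ± 0.995 to 25.3 ± 3.55 FPKM (SD, n = 4 each). Sla went from 1.51 ± 0.346 to 3.98 ± 0.737 FPKM and E2f3 from 3.35 ± 0.210 to 5.26 ± 0.609 FPKM (SD, n = 4 each). Genes with a like log2 fold change on this scale come out as near, and the scale understates the change of low genes such as Sla. Bnip3 itself lay 0.508 from its mean and Sqstm1 0.280.

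Cell type markers moved with these results, and in bulk tissue fewer cells of a type and less RNA per cell cannot be told apart. The 8 cardiomyocyte markers summed to 41848 to 42761 FPKM in control and 30692 to 33613 FPKM in ANG II, with 4 of 8 lower by adjusted p and Myh6 and Tnni3 called lower. The 6 fibroblast markers summed to 450 to 669 FPKM in control and 2704 to 3249 FPKM in ANG II, and the 6 macrophage markers to 127 to 162 and 324 to 432 FPKM, with each of them called higher. The 4 endothelial markers summed to 301 to 324 and 344 to 400 FPKM, with 2 of 4 higher by adjusted p and 1 called. Their median log2 fold change was 0.14, beside 0.15 over all genes, and the lowest was -0.14. Skeletal muscle, where Fbxo32 and Trim63 are also high, could be carried along with the heart. Its 8 markers summed to 1.39 to 3.05 FPKM in control and 3.84 to 6.67 FPKM in ANG II, 5 of 8 had a mean under 0.1 FPKM, and Myh4 was listed at 0 in all libraries. Tnnt3 was called higher among them. The 4 atrial markers summed to 5.75 to 30.4 FPKM per library in control and to 34.7 to 114 FPKM in ANG II. The part of these marker lists in the changes of the members was not tested.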

How the data were processed

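RNA-seq gave 4 control and 4 ANG II libraries from the left ventricle of mice after 7 days of infusion, and groups were taken from the sample titles. The label of the extraction step names another cell material, and the tissue label was used. The authors deposited 1 table of FPKM values, with 1 column per library. The processing notes of the submitters name HISAT, Bowtie2 and RSEM, with no version. The genome build, annotation and use of strand are not given in the sources used here. The study names limma. It also names a larger number of samples, and the other libraries were not used here.

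The members and lists were chosen with earlier results of these data known. Genes averaging 0.1 FPKM or more were tested on log2(FPKM + 1) with limma 3.58.1 in R 4.3.3 (eBayes with a trend, no covariate, two-sided). P-values were adjusted by the Benjamini-Hochberg method over 19364 genes. Fold changes on this scale understate low genes. Ratios were tested by exact permutation over 70 allocations (scipy 1.17.1). The text names all members, 5 paralogs, up to 3 called genes with the largest change per list, and the 3 genes nearest to each called member, of which 1 is not reported here. Asb2, Fbxl22, Pink1 and Ube2b fall outside this rule and were named after their values were seen. A few single markers were named, and the other marker lists are given as sums.

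Fragment numbers were read from the FPKM steps with GENCODE M21 transcript lengths. Within 0.05 of a whole number lay 99.0% to 99.2% of low values for genes with 1 transcript and 94.9% to 97.6% for others. These libraries hold no molecular identifiers, so this depth covers counting error only. No 2 libraries agreed within sampling noise (chi-square per degree of freedom 7.43 to 17.3 over the 12 pairs within groups, genes with at least 20 fragments). The study describes its sequenced samples as biological replicates. Nothing in the labels states that a library is 1 mouse, so p-values measure the spread between libraries. The procedure was tested on simulated data. Alternatives were other pseudocounts, filters, scalings and thresholds, a replicate block, each library left out, and, chosen after seeing the data, voom on the recovered fragments and scaling to cardiomyocyte markers.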

Additional observations from a re-analysis of the deposited data

Results flagged for a closer look

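Dixon's criterion was applied to the 4 libraries of each group for 10 members and 10 ratios, 40 groups in all, of which chance marks about 1 in 20. It marked 2. Trim54 in ANG II library 4 was 92.4 FPKM, when the next highest ANG II library had 76.4 and the lowest 74.3 FPKM. The log2 ratio of Trim63 to Trim54 in ANG II library 1 was 0.61, when the other 3 libraries lay between 0.45 and 0.47. Both concern Trim54 or a ratio that holds it.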

How the results depend on the processing

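Bnip3 stayed called higher in all 18 alternatives that keep the threshold of 0.5, and Trim63 stayed lower in all 18 but missed the adjusted p in limma when scaled to cardiomyocyte markers. Genes called numbered 2981, and 795 with an absolute log2 fold change above 1, 6447 by adjusted p alone and 6482 when scaled to cardiomyocyte markers. Members called numbered 2, and 0, 5 and 5 in those settings, and other pathway genes 5, and 0, 29 and 28. Leaving out 1 library gave 2763 to 3109 genes, 1 to 2 members and 3 to 6 other pathway genes; the call lost was that of Sqstm1, without control library 1, control library 2 or ANG II library 4, and 3 other pathway genes were called without control library 3. Among called genes 90.8% were higher as deposited, 67.5% under the median of ratios, 59.0% after quantile normalization, 78.3% after rescaling to a common total, 67.1% by voom and 98.8% when scaled to cardiomyocyte markers.

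Directions turned for Fbxo32 (0.058) and Trim55 (0.21) when scaled to cardiomyocyte markers, for Trim54 under the median of ratios (-0.042) and by voom (-0.045), and for Map1lc3b under the median of ratios (-0.16), quantile normalization (-0.12), a common total (-0.081) and voom (-0.17). Ulk1 turned when scaled to cardiomyocyte markers (0.31) and when 1 library was left out (-0.058 to 0.072). After subtraction of the median over all genes, Bnip3 ranged from 0.73 to 0.93, Sqstm1 from 0.28 to 0.48 and Trim63 from -0.66 to -0.47. The cause of these changes beyond the scaling itself was not tested.

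The replicate numbers did not pair the samples: the correlations of same-numbered deviations were -0.01, 0.09, -0.04 and 0.0007, not every one above 0.1, and not every library correlated best with its own number. With the replicate block, 2968 genes, 2 members and 5 other pathway genes were called. Depth limits Fbxo32 and Becn1 most, at 332 to 532 and 340 to 582 fragments per library.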
